A study of Zea mays with 12 samples.

Results

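The comparison set hybrid maize ears against ears of the inbred line B73. It used the 6 arrays labelled B73xMo17 or Mo17xB73 and the 3 arrays labelled B73, chosen by genotype label, which is 9 of the 12 arrays of the series. Each array held RNA from a pool of 6 immature ears, between 3.7 and 5.4 mm long, of field-grown plants. The other 3 arrays held Mo17 ears and are given beside the comparison as the level in the second parent.

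The groups were B73xMo17 (3 pools), Mo17xB73 (3 pools), Mo17 (3 pools) and B73 (3 pools), and the labels give no treatment. B73 and Mo17 are inbred lines, homozygous at nearly all loci. B73xMo17 and Mo17xB73 are their reciprocal first-generation hybrids, and by maize convention the name before the x is the seed parent. Both hybrids therefore carry 1 B73 and 1 Mo17 copy of each nuclear gene, and they differ in which line supplied the egg. Each array is a separate biological replicate per the labels, so p-values measure the spread between pools of ears grown in 1 field. The question for this comparison was what a Mo17 genome copy adds to or removes from the transcripts of a B73 ear.

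An immature maize ear is a young female inflorescence, made of an inflorescence meristem that gives off spikelet pair, spikelet and floret meristems in rows. KNOTTED1-type homeobox genes keep these meristems undetermined, and MADS-box genes specify the floral organs that form on them. B73 and Mo17 differ widely in sequence and in gene content, so a hybrid can receive transcripts from a Mo17 allele that has no counterpart in B73, and the reverse.

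The values were MAS5 signals, a linear intensity for each probe set. A probe set is a group of short probes on an Affymetrix array that reads a transcript or several related ones. Every array was scaled to a median of 154.9 and signals under 11.9 were set to that floor. The deposited medians ran from 123 to 231, and the highest belonged to B73 replicate 2. That array also stood apart at the low end, with a 20th percentile of 19.4 after scaling against 9.88 to 14.4 on the other 11 arrays, so the main counts are also given without it. A probe set passed where the adjusted p was under 0.05 in limma's moderated test with Benjamini-Hochberg adjustment over 11126 tested probe sets. Ear genes were well expressed: 20 probe sets for meristem and floret genes ranked at a median percentile of 70.5 among all probe sets by signal, while 27 for endosperm genes and 7 for pollen or anther genes had medians at percentile 9.9, where probe sets at the floor rank.

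Hybrid ears differed from B73 ears at 1879 probe sets, 16.9% of those tested. Of these, 954 were higher in the hybrids (8.57%) and 925 were lower (8.31%). The log2 difference, mean hybrid minus B73, had a median of 0.62 among the higher ones and -0.55 among the lower ones, against 0.02 over all tested probe sets. The 6 hybrid arrays and the 3 B73 arrays did not overlap for 2298 probe sets (20.7%), with the hybrids above B73 at 10.3% of all tested probe sets and below it at 10.3%. This held for 878 of the 954 higher and 837 of the 925 lower ones. A lower signal can come from fewer cells of a type or less RNA per cell, and also from an allele that matches the probes less well. These cannot be told apart on these arrays.

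The balance of the counts depended on single arrays and on the scaling. Without B73 replicate 2 the counts were 805 higher and 949 lower. Without B73 replicate 1 they were 807 higher and 561 lower, and without B73 replicate 3 they were 799 higher and 569 lower. In the values as deposited, where the median over all probe sets was -0.24, the counts were 346 higher and 1005 lower. The near-equal split was thus seen with every array scaled to a common median. It was less even with any 1 B73 array left out.

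**Figure D1:**
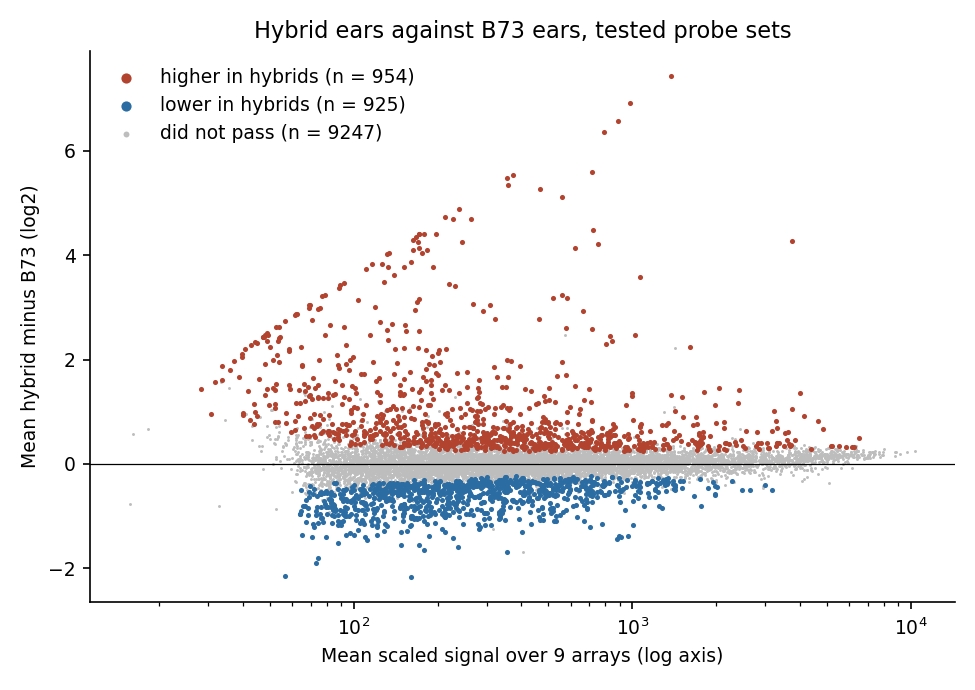
Each point is 1 of 11126 tested probe sets, with the mean scaled signal over the 6 hybrid and 3 B73 arrays on a log axis and the log2 difference, mean hybrid minus B73, on the vertical axis. The 954 higher probe sets reach 7.43 and the 925 lower ones end at -2.17.

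Large rises were common and large falls were almost absent. Past the test, 301 probe sets were at least 2-fold higher in the hybrids (2.71% of those tested) and 101 were at least 2-fold lower (0.908%). At 4-fold or more, 125 were higher (1.12%) and 2 were lower (0.018%), and at 8-fold or more 59 were higher and 0 were lower. Below 2-fold the order turned, with 653 higher and 824 lower. All 925 lower probe sets had a B73 mean of at least 4 times the floor, and 692 had at least 16 times. The deepest fall was 4.51-fold. These counts cover only probe sets already called lower. The part of the floor in the scarcity of large falls was not tested.

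The excess of large rises over large falls was present at 4-fold in every setting run, with 36 higher and 1 lower at the least under the higher floor. At 2-fold it was not present in the values as deposited, with 248 higher and 274 lower. Without B73 replicate 3, 68 probe sets were at least 2-fold lower. Without B73 replicate 2, 139 were at least 4-fold higher and 1 was at least 4-fold lower.

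**Figure D2:**
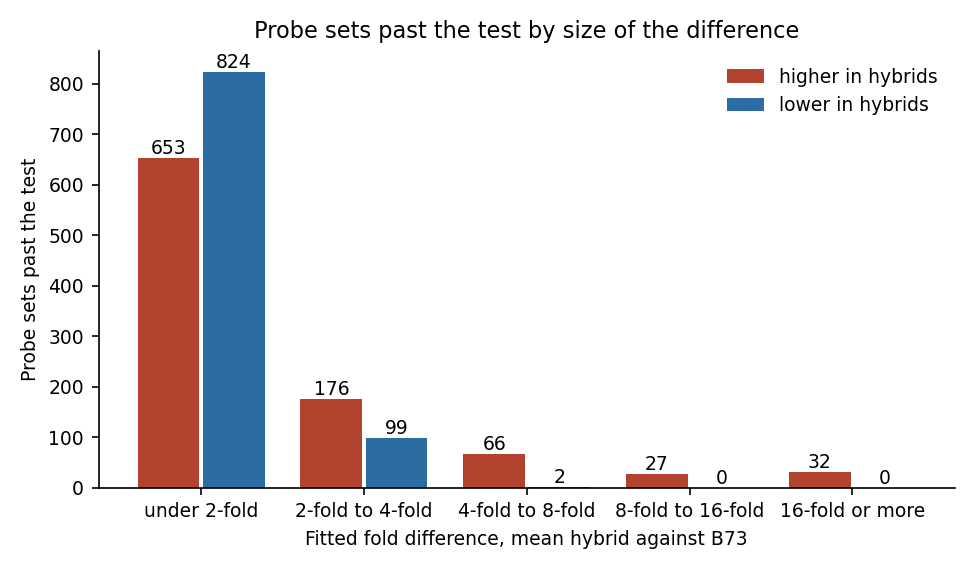
Bars count the probe sets past the test in 5 classes of fitted fold difference between the mean hybrid and B73, higher in the hybrids in red and lower in blue. From 4-fold upward there are 125 higher and 2 lower probe sets.

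Probe sets in the lowest signal class differed most often. With the tested probe sets cut into 4 equal classes by mean signal, 10.8% of the lowest class (24.1 to 177) were higher and 15.1% lower in the hybrids. In the highest class (796 to 10549), 6.72% were higher and 2.3% lower. The standard error had a median of 0.15 in the lowest class and 0.10 in the highest, so the classes were not measured equally well.

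Some probe sets had signal in hybrids and Mo17 but were at the floor in B73. A missing B73 transcript and a B73 allele that matches the probes less well cannot be told apart here. On all 3 B73 arrays 35 probe sets (0.315% of those tested) lay at the floor while all 6 hybrid arrays were above it and the difference passed the test. Their hybrid means ran from 44.4 to 2052 and their Mo17 means from 91.6 to 3843. The B73 level being at the floor, each fold is a lower bound, and the bounds ran from at least 3.67-fold to at least 173-fold higher with a median of 9.42. With B73 replicate 2 left out, 63 probe sets met the same description. The reverse, at the floor in all 6 hybrid arrays and above it on the B73 arrays, was met by 0 probe sets. Both counts depend on the floor and the filter: with the higher floor, at the 40th percentile, they were 109 and 48 for the reverse, and with no filter on weak probe sets they were 54 and 5. None of the 35 has a gene symbol in the annotation used here, so they are given by array identifier.

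Zm.14497.4.A1_at had the largest rise. Its lowest, median and highest signals in the 6 hybrid arrays were 1924, 2045 and 2238, the 3 Mo17 arrays read 2694, 3177 and 3338, and all 3 B73 arrays were at the floor of 11.9. Zm.5083.3.A1_at averaged 1460 ± 348 in the hybrids (SD, n = 6), and its B73 arrays were again all at the floor. The hybrid level of this probe set ranged from 1408 to 2078 in B73xMo17 and from 1167 to 1260 in Mo17xB73. A further 3 probe sets with all B73 arrays at the floor, Zm.12687.2.S1_at, Zm.3284.2.A1_a_at and Zm.1694.1.S1_at, averaged 555 ± 94.3, 528 ± 22.2 and 352 ± 16.7 in the hybrids (SD, n = 6). Zm.17686.1.A1_at, Zm.14951.1.S1_a_at and Zm.13321.1.A1_at completed the largest rises with hybrid means of 1325, 1182 and 1059 against B73 means of 14.4, 14.5 and 25.4.

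The signal in the hybrids lay close to the middle of what Mo17 alone gave. Over the 35 probe sets at the floor in B73, the mean hybrid signal was 46.7% of the Mo17 signal at the median, with the quartiles at 42% and 51.9% and the extremes at 31.3% and 83.3%. The medians were 47.8% in B73xMo17 and 47.2% in Mo17xB73. Mo17 arrays entered the choice of the 35 through the filter, which counts all 12 arrays. Chosen on the 9 hybrid and B73 arrays alone there were 25, with a median of 47.5% of the Mo17 signal, and with no filter the 54 had a median of 48.6% and a range of 31.3% to 93.3%. All of these sets required every hybrid array above the floor and a pass as higher. That leaves out probe sets with little hybrid signal, so the percentages are a description.

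A second set held probe sets with signal in B73 but at the floor in all 3 Mo17 arrays. Its rule differed from that of the set at the floor in B73. It had a minimum B73 level and no condition on the hybrid arrays or the test. Where the B73 mean was at least 16 times the floor there were 43 such probe sets, with the filter or without it. Of these, 42 passed as lower in the hybrids than in B73 and 0 as higher. They were chosen for a high level in B73, so these counts and the values that follow are a description. Their log2 difference had a median of -0.96, with quartiles of -1.06 and -0.87 and the extremes at -1.56 and -0.51. The hybrid signal was 51% of the B73 signal at the median, with quartiles of 48.1% and 55% and a range of 34.3% to 70.9%. The medians of the 2 crosses were 52% in B73xMo17 and 52.7% in Mo17xB73. The median log2 difference was -1.04 without B73 replicate 2, -1.25 over 61 probe sets in the values as deposited and -0.60 over 13 with the higher floor, since each setting also changes which probe sets qualify.

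**Figure D3:**
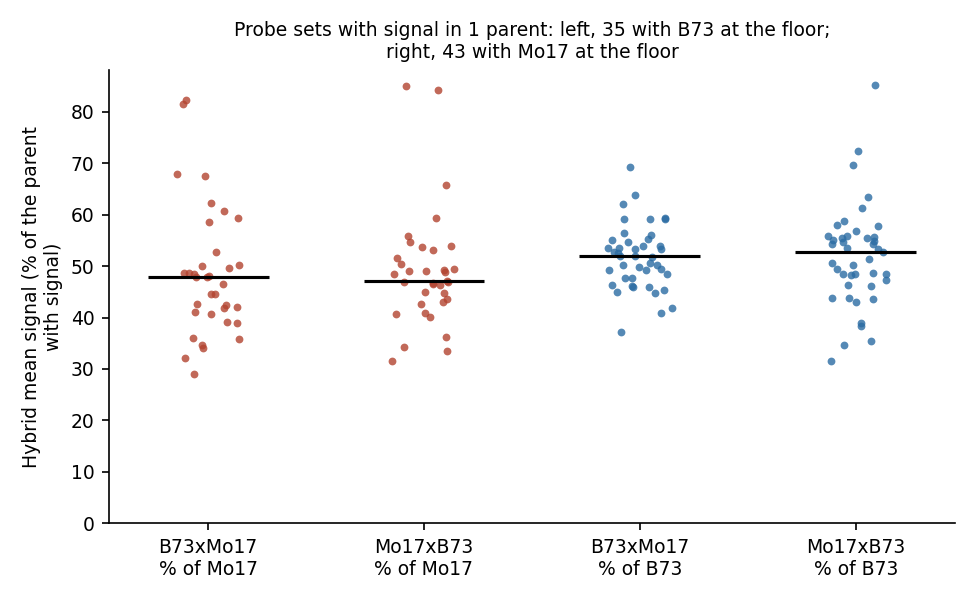
Each point is the mean signal of a hybrid as a percent of the parent that has signal, for 35 probe sets at the floor in B73 (left, percent of Mo17) and 43 at the floor in Mo17 (right, percent of B73). Black lines are medians, which lie at 47.8%, 47.2%, 52% and 52.7%. The left and right sets were chosen by different rules.

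HRGP, a structural cell wall glycoprotein rich in hydroxyproline, was the 1 named gene among the 43. Its probe set Zm.162.1.A1_x_at read 1821, 1450 and 1495 in B73xMo17 and 1897, 1476 and 1967 in Mo17xB73, 11.9 on all 3 Mo17 arrays, and 3022, 2114 and 2542 in B73. The hybrid mean was 65.8% of the B73 mean, and the log2 difference was -0.60 ± 0.12 (SE, adjusted p = 0.00289). All 6 hybrid arrays were below all 3 B73 arrays. The other HRGP probe set averaged 2703 in the hybrids, 12.7 in Mo17 and 3582 in B73 (log2 difference -0.40, adjusted p = 0.0131), and it did not pass without B73 replicate 1.

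The deepest falls were to levels still above the floor. Zm.16805.8.S1_at, unnamed in the annotation, had signals of 67, 69.8 and 84 as the lowest, median and highest hybrid arrays against 288, 409 and 305 in B73, a log2 difference of -2.17 ± 0.15 (adjusted p = 6.78e-08). Zm.12454.1.A1_at averaged 27.7 ± 12.4 in the hybrids (SD, n = 6) and 115 ± 35.2 in B73 (SD, n = 3), at -2.14. Zm.11180.1.A1_at, Zm.11758.1.A1_at and Zm.15293.1.S1_a_at followed at -1.89, -1.80 and -1.68. Zm.11758.1.A1_at was lower in the hybrids, at 40.9 ± 8.65, than in either inbred, with 62.8, 71.3 and 66.3 on the Mo17 arrays and 175, 123 and 127 on the B73 arrays.

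Among genes with a symbol, 843 probe sets were tested and 135 passed, 61 higher and 74 lower. The largest rise at a probe set with a symbol was at Zm.17475.1.S1_x_at, named gst13 for a glutathione transferase of the enzyme family that conjugates glutathione to toxins and stress products. Its signals were 212, 226 and 232 in B73xMo17 and 220, 283 and 225 in Mo17xB73, 242, 361 and 330 in Mo17, and 11.9, 28.8 and 11.9 in B73. The log2 difference was 3.86 ± 0.24 (adjusted p = 1.90e-08), with 2 B73 arrays at the floor, so its size depends on the floor. No hybrid array came near a B73 array. The other gst13 probe set was brighter and did not pass, at 339 in the hybrids, 136 in Mo17 and 425 in B73 (log2 difference -0.30, adjusted p = 0.152).

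GAPC1, a cytosolic glyceraldehyde-3-phosphate dehydrogenase of glycolysis, rose at 1 of its 2 tested probe sets. Zm.3765.2.S1_at read 225, 181 and 226 in B73xMo17, 201, 206 and 189 in Mo17xB73, and 41.9, 61.2 and 32.5 in B73 (log2 difference 2.22, adjusted p = 1.14e-07). The brighter probe set averaged 6774 in the hybrids and 5794 in B73 and did not pass (log2 difference 0.24, adjusted p = 0.203). The 2 probe sets of this gene disagree in size, and the larger value belongs to the dimmer one.

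UMPS, which makes the pyrimidine nucleotide UMP, rose at 1 of 2 probe sets, Zm.6787.1.A1_at. It averaged 182 ± 13 in the hybrids (SD, n = 6), 313 to 372 on the Mo17 arrays and 55.3 ± 9.91 in B73 (SD, n = 3), a log2 difference of 1.73 ± 0.12 (adjusted p = 1.04e-07), while the brighter one had 0.21 and did not pass (adjusted p = 0.268). The cystatin gene cpi2, whose product inhibits cysteine proteases, averaged 695 ± 84.1 in the hybrids (SD, n = 6) and 220 ± 50.7 in B73 (SD, n = 3), a log2 difference of 1.68 at 1 of its 2 probe sets. The other had 0.16 and did not pass (adjusted p = 0.275). Zm.34.4.A1_at, named ubc7 for a ubiquitin-conjugating gene, rose by 2.05 on the log2 scale at low signals. It read 45.5 to 64.3 on the hybrid arrays and 11.9 to 13.2 on the B73 arrays, and its call depends on the floor. Its identifier shares the stem of a sequence cluster with Zm.34.1.A2_a_at, named gz27, and with none of the other 5 tested ubc7 probe sets. The name ubc7 is therefore in doubt for this rise. Those other 5 probe sets had differences from 0.04 to 0.20 and did not pass. Among the largest rises at probe sets with a symbol were also 2.21 for pep7, 1.61 and 1.44 for 2 of 3 probe sets of atGRF2, 1.44 for the pyruvate decarboxylase gene pdc2 and 1.43 for CAF1. The third atGRF2 probe set also passed, at 0.85 (adjusted p = 0.0313), and the one at 1.44 was lost with the higher floor. The probe sets given here as the largest rises with a symbol were chosen among calls whose hybrid and B73 arrays did not overlap.

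CAT3, a catalase that breaks down hydrogen peroxide, had the largest named fall. Its signals were 122, 121 and 116 in B73xMo17, 128, 114 and 131 in Mo17xB73, 102, 63.5 and 51.2 in Mo17, and 321, 302 and 329 in B73 (log2 difference -1.38 ± 0.16, adjusted p = 2.81e-05). The 6 hybrid arrays differed among themselves by less than 20 signal units and sat well below B73. The gene ov23 was as evenly lower, at 520 to 632 on the hybrid arrays, 181 to 211 in Mo17 and 1115 to 1313 in B73 (log2 difference -1.15, adjusted p = 2.61e-07). DBP1a averaged 122 ± 15.8 in the hybrids (SD, n = 6) and 243 ± 36.9 in B73 (SD, n = 3), a log2 difference of -1.0.

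The gene aprl1 did not follow Mo17. It read 527, 530 and 440 in B73xMo17 and 255, 432 and 264 in Mo17xB73, 555, 610 and 809 in Mo17, and 815, 627 and 711 in B73. The mean hybrid was lower than B73 by a log2 difference of -0.87 ± 0.16 (adjusted p = 0.00165), and the Mo17 minus B73 difference was -0.13. The comparisons of the hybrids and of Mo17 share the B73 arrays.

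**Figure D4:**
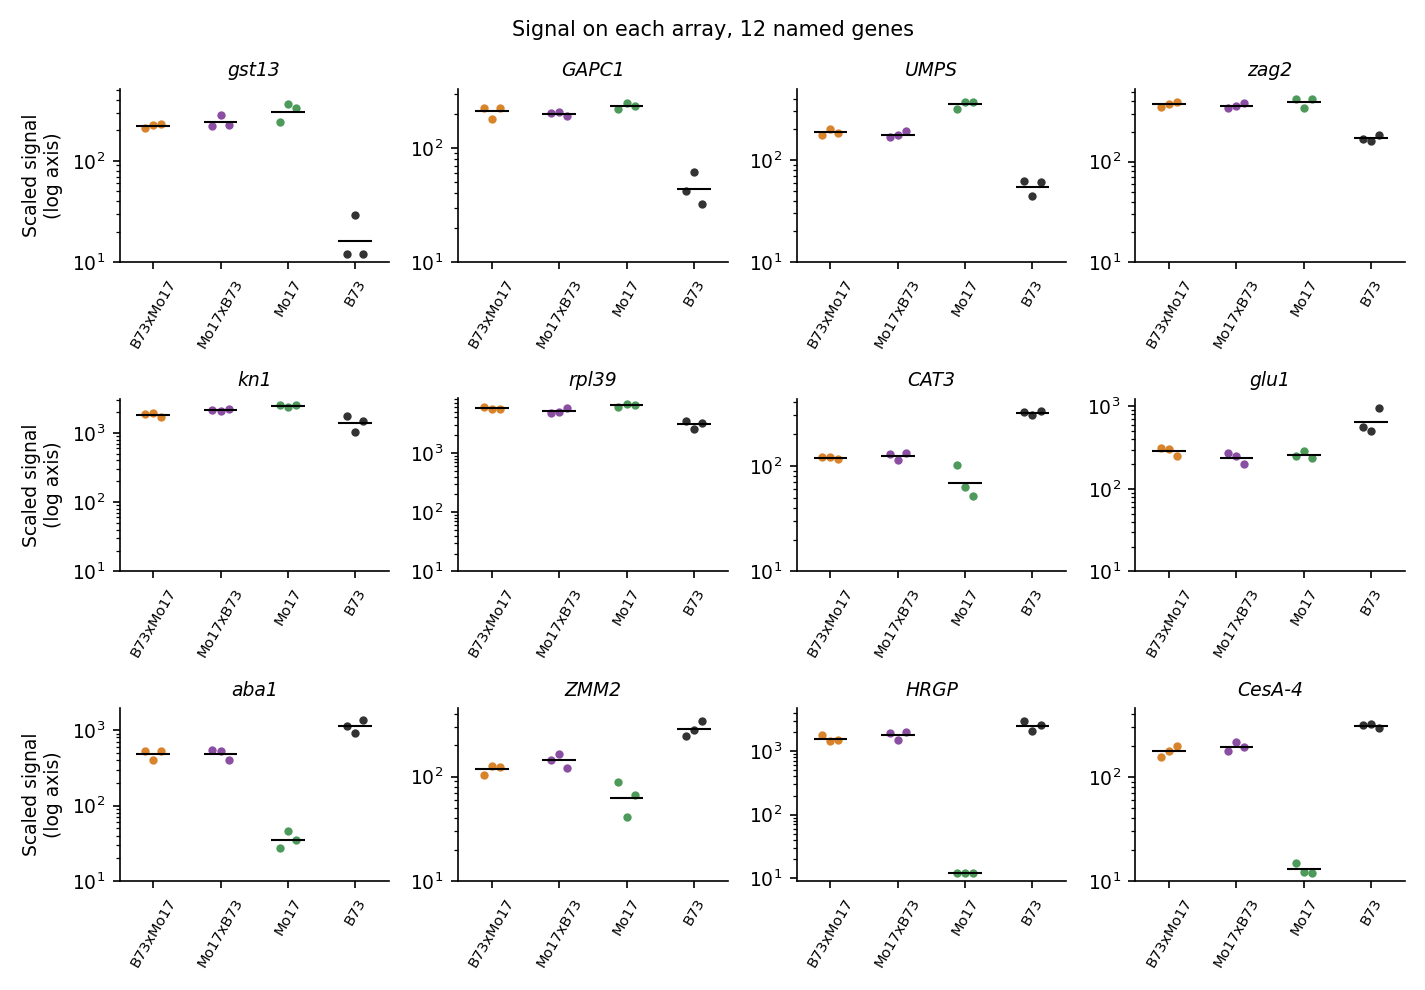
Scaled signal on each array, on log axes, for 12 named genes (1 probe set each), with the 2 hybrids on the left, then Mo17, then B73. Points are arrays and black lines are geometric means. The hybrids lie above B73 in gst13, GAPC1, UMPS, zag2 and rpl39 and below it in CAT3, glu1, aba1, ZMM2, HRGP and CesA-4, and 1 B73 array of kn1 reaches the hybrid range.

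Genes were also grouped into lists by symbol. The lists were chosen with earlier results of these data known, so their counts and shares are a description. Over all lists 23 members passed as higher and 35 as lower in the hybrids, and in the values as deposited 8 and 43. In the values as deposited the rises of kn1, zfl1, zap1, si1, crr2, an1, hk3, PIP1-3, rf2b, HDA108, mbd111, pcna2, tub6 and PSBQ, of 1 probe set each of rpl39 and pdc2, and the fall of fps1 did not pass. With no filter on weak probe sets, yab9, kn1, zap1, si1, hk3, igl1, prp2, gst28, rf2b, phb3, gln5, TIP2-1, HDA108, mbd111 and PSBQ did not pass. Of the 23 tested probe sets for ear architecture genes, 2 were higher, 4 were lower and 17 did not pass, with a list median of -0.01 beside 0.02 for all probe sets. The ear architecture share past the test was 26.1%, to be read against the 16.9% of all probe sets. Other shares were 29.4% for MADS-box genes, 27.8% for hormones, 25% for auxin, 33.3% for glutathione transferases and 62.5% for defence. They were 22.7% for cell wall, 14.3% for nitrogen, 7.14% for the cytoskeleton and 6.67% for photosynthesis. Chromatin had 4.35% of 69 probe sets, translation 11.6% of 43, cell cycle 3.85% of 26 and heat shock 0% of 13. The lists therefore lay on both sides of the share of all probe sets.

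The meristem gene kn1, which keeps shoot and inflorescence meristem cells undetermined, was higher in the hybrids. It read 1875, 1948 and 1682 in B73xMo17, 2106, 2065 and 2206 in Mo17xB73, 2484, 2332 and 2493 in Mo17, and 1762, 1030 and 1474 in B73, a log2 difference of 0.51 ± 0.13 (adjusted p = 0.0128). The groups overlapped at 1 B73 array, and without B73 replicate 2, the lowest array, the difference was 0.29 with an adjusted p of 0.0412. In the values as deposited kn1 did not pass. The floral meristem identity gene zfl1, the maize counterpart of LEAFY, averaged 173 ± 15.7 in the hybrids (SD, n = 6) and 126 ± 15.2 in B73 (SD, n = 3), a log2 difference of 0.45 (adjusted p = 0.00634) that did not pass in the values as deposited. The other probe set with this symbol averaged 98.5 in the hybrids and 84.4 in B73 and did not pass (adjusted p = 0.454).

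The 4 lower ear genes were the HD-ZIP genes GT1, ocl5 and ocl3 and the YABBY gene yab9. Other list members of these families did not pass, with differences of 0.07 for ocl1, -0.04 for ocl4, -0.22 for yab10, 0.10 for yab14, -0.06 for rld1 and -0.01 for rld2. GT1, an HD-ZIP gene that holds back bud and floral organ growth, had hybrid signals between 276 and 346, Mo17 signals between 137 and 173 and B73 signals of 469, 436 and 443 (log2 difference -0.54 ± 0.10, adjusted p = 0.00169). The epidermal HD-ZIP genes ocl5 and ocl3 had differences of -0.48 and -0.35, and the YABBY gene yab9 had -0.57. The hybrid and B73 arrays of GT1 and ocl5 did not overlap, and both passed with any 1 array left out. With 1 array left out in turn, yab9 passed in 8 of 12 fits and ocl3 in 7 of 12, with adjusted p-values up to 0.111 and 0.12. Genes of the branching and spikelet programmes on the list, tb1 (0.10), BA1 (0.20), bd1 (0.49), ids1 (0.29) and fea2 (-0.06), did not pass.

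MADS-box genes moved both ways. Of 17 tested probe sets 3 were higher, 2 were lower and 12 did not pass, and the list median was -0.17. The carpel and ovule gene zag2 had the largest rise, with signals of 355, 379 and 394 in B73xMo17, 340, 359 and 384 in Mo17xB73, 422, 344 and 422 in Mo17, and 168, 161 and 186 in B73. Its log2 difference was 1.10 ± 0.09 (adjusted p = 6.64e-07), and the hybrid range overlapped that of Mo17 while both lay above B73.

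ZMM2, an AGAMOUS-type gene for stamens and carpels, was lower, at 104, 125 and 124 in B73xMo17, 145, 164 and 122 in Mo17xB73, 88.3, 41.1 and 66 in Mo17, and 243, 282 and 340 in B73 (log2 difference -1.14 ± 0.20, adjusted p = 0.00076). A separate probe set under the name zmm2 was at the floor throughout and was not tested. The gene zmm14 averaged 1777 ± 145 in the hybrids (SD, n = 6) and 2374 ± 251 in B73 (SD, n = 3), a log2 difference of -0.42 that did not pass without B73 replicate 1 or B73 replicate 3 (adjusted p up to 0.0698). A second, weaker zmm14 probe set averaged 72.1 in the hybrids and 49.7 in B73 and did not pass (log2 difference 0.42, adjusted p = 0.612). The B-class gene si1 (0.52) and the APETALA1-type gene zap1 (0.28) were higher by smaller steps, and with 1 array left out in turn they passed in 7 and 2 of 12 fits. ZAG1, the other AGAMOUS-type gene, averaged 290 in the hybrids and 389 in B73 and did not pass (adjusted p = 0.117).

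In the hormone list 3 of 18 tested probe sets were higher and 2 lower. The higher ones were the gibberellin biosynthesis gene an1, also called anther ear1 (0.38, adjusted p = 0.0103), the cytokinin response regulator crr2 (0.45, adjusted p = 0.0198) and the histidine kinase gene hk3 (0.42, adjusted p = 0.0374). The cytokinin response genes RR5 to RR10 on the list had differences from -0.50 to 0.35 and did not pass. With 1 array left out in turn, an1 passed in 12, crr2 in 10 and hk3 in 6 of 12 fits, and none of the 3 passed in the values as deposited.

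Both lower hormone-list probe sets were of aba1. At Zm.6532.1.A1_at the hybrids read from 400 to 549, Mo17 read 27.2, 46.4 and 34.9, and B73 read 1127, 926 and 1346 (log2 difference -1.21 ± 0.17, adjusted p = 0.000122). At Zm.6532.1.A1_a_at the hybrids averaged 88.6, Mo17 87 and B73 186 (log2 difference -1.06, adjusted p = 0.000874). The 2 probe sets put Mo17 at different places, well below the hybrids in one and level with them in the other, while the hybrid differences from B73 were close in size. In the auxin list, abp4, an auxin-binding protein gene, was lower at -0.62 (adjusted p = 0.000763), and abp1, aux1 and arf1 did not pass.

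**Figure D5:**
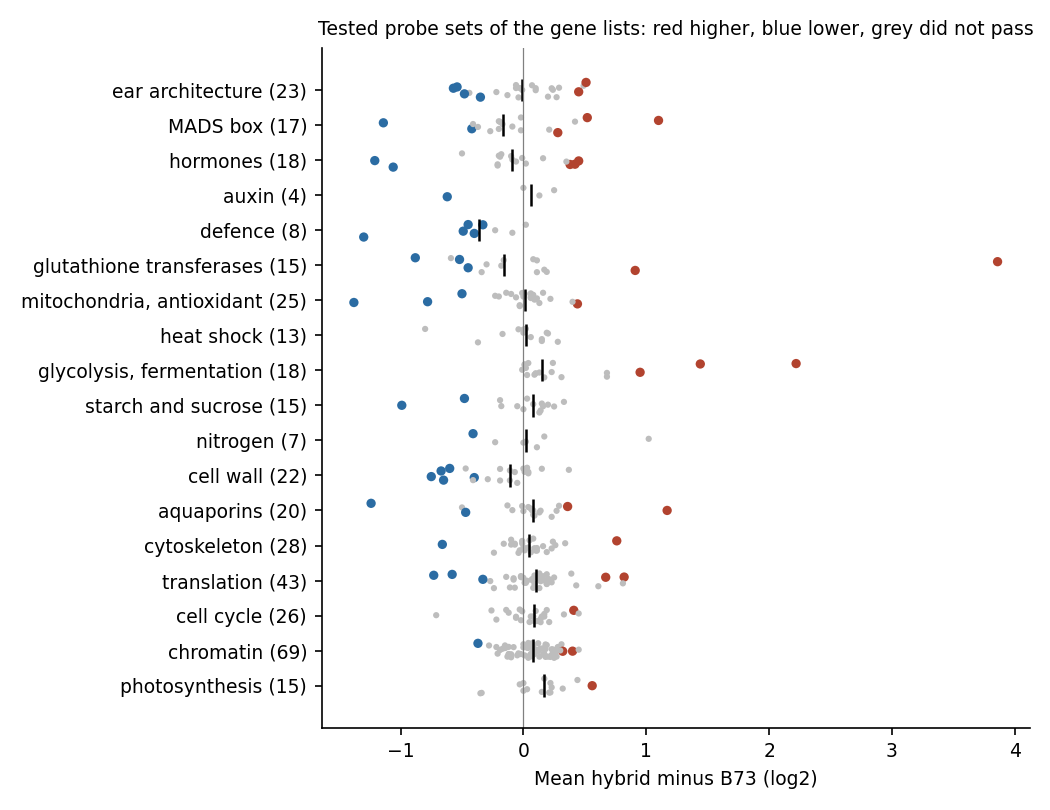
Each point is a tested probe set of a gene list, placed by its log2 difference, mean hybrid minus B73, with the number of tested probe sets in brackets and the list median as a black line. Defence genes lie mostly left of 0, and gst13 at 3.86 lies farthest right.

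The defence list had falls at 5 of its 8 tested probe sets, 0 rises and a median of -0.36. Over all probe sets 8.31% were lower. The list was chosen with earlier results of these data known, so its share is a description. The gene glu1 encodes the beta-glucosidase that releases toxic benzoxazinoids from their stored glucosides. It read 314, 308 and 250 in B73xMo17, 270, 250 and 203 in Mo17xB73, 252, 286 and 234 in Mo17, and 556, 507 and 961 in B73, a log2 difference of -1.30 ± 0.17 (adjusted p = 7.29e-05). The hybrid and Mo17 ranges overlapped and both lay below B73.

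The other 4 were smaller falls. They were igl1, which makes free indole (-0.49), bx6, a dioxygenase of benzoxazinoid synthesis (-0.45), prp2 (-0.40) and fps1, a farnesyl diphosphate synthase of terpenoid synthesis (-0.33). A separate bx6 probe set had -0.23 and did not pass (adjusted p = 0.303), nor did PAL1 (-0.09) and lox3 (0.02). With 1 array left out in turn, igl1 passed in 10 and prp2 in 7 of 12 fits, and glu1, bx6 and fps1 passed in all 12. In the values as deposited fps1 did not pass (adjusted p = 0.0527). On the array 22 probe sets belong to the list, so 14 were too weak to test.

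Glutathione transferases split, with 2 of 15 tested probe sets higher and 3 lower. Beside gst13, GST38 rose to 328 ± 47.3 in the hybrids (SD, n = 6), against 173 ± 12.1 in B73 (SD, n = 3), a log2 difference of 0.91 (adjusted p = 5.66e-05). The gene gst12 fell to signals between 676 and 815 in the hybrids, with 166, 301 and 317 in Mo17, against 1314, 1143 and 1611 in B73 (log2 difference -0.88, adjusted p = 0.00171). GST3 (-0.52) and gst28 (-0.45) were lower as well, and gst28 passed in 3 of 12 fits with 1 array left out.

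Among genes of mitochondria and oxidant removal, 1 of 25 tested probe sets was higher and 3 were lower. That share, 16%, was close to the 16.9% of all probe sets. After CAT3 the lower ones were aox1, the alternative oxidase of the respiratory chain (-0.78 ± 0.16, adjusted p = 0.00307), and the prohibitin gene phb3 (-0.50, adjusted p = 0.0347). Superoxide dismutases and cat1 had differences between -0.10 and 0.22 and did not pass. The aldehyde dehydrogenase gene rf2b was higher at 0.44 and passed in 4 of 12 fits with 1 array left out, and phb3 passed in 7 of 12. Of 13 heat shock probe sets tested 0 passed in limma and 0 had an unadjusted p under 0.05, with differences from -0.80 to 0.28. In the values as deposited 2 of them passed as lower, with hsp18f at -0.63 (adjusted p = 0.00166) against -0.37 after scaling (adjusted p = 0.32).

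In glycolysis and fermentation 3 of 18 tested probe sets were higher and 0 lower, with a median of 0.15. That share, 16.7%, was close to the 16.9% of all probe sets. Both probe sets of pdc2, a pyruvate decarboxylase, were higher at low signals, 27.9 to 44.9 on the hybrid arrays, 146 to 164 in Mo17 and 11.9 to 15.7 in B73 for Zm.14518.1.S1_at (log2 difference 1.44, adjusted p = 0.000227). Both calls were lost with the higher floor, and that of the other probe set was also lost without B73 replicate 2 (adjusted p = 0.0673). The enzyme genes eno1, eno2, adh1, adh2, ald1, GAPC2 and phi1 had differences from -0.01 to 0.31 and did not pass.

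For starch and sucrose 2 of 15 tested probe sets were lower and 0 higher, a share of 13.3% beside the same 16.9%. The starch synthase gene ss1 fell to 282 to 317 in the hybrids, against 428, 391 and 409 in B73 (log2 difference -0.48 ± 0.09, adjusted p = 0.0023). The sucrose synthase gene sus2 was lower at -0.99 (adjusted p = 0.0064), a call that leaving out B73 replicate 3 ended (adjusted p = 0.0544). In the nitrogen list gln5, a glutamine synthetase gene, was lower at -0.41 (adjusted p = 0.021) and passed in 10 of 12 fits with 1 array left out.

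The asparagine synthetase gene asn1 varied widely between hybrid arrays. It read 298, 338 and 155 in B73xMo17, 35.1, 138 and 151 in Mo17xB73, 784, 756 and 515 in Mo17, and 65.3, 97 and 64.4 in B73. The mean hybrid minus B73 difference was 1.02 ± 0.38 and did not pass (adjusted p = 0.0878). It passed in the values as deposited (0.76, adjusted p = 0.0102), with the higher floor (1.02, adjusted p = 0.0112) and without Mo17xB73 replicate 1, the 1 hybrid array below B73 (1.36, adjusted p = 0.00104). B73xMo17 alone passed against B73 (1.75, adjusted p = 0.0155) and Mo17xB73 alone did not (0.28, adjusted p = 0.763), and the crosses did not pass the test against each other.

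In the cell wall list 5 of 22 tested probe sets were lower and 0 higher, from 3 genes, with a median of -0.11. Beside HRGP, both probe sets of the cellulose synthase gene CesA-4 fell, to 154 to 216 on the hybrid arrays for Zm.520.1.S1_at, with 14.9, 12.3 and 11.9 in Mo17, against 318, 324 and 292 in B73 (log2 difference -0.75 ± 0.13, adjusted p = 0.000622). The other 8 tested cellulose synthase genes had differences from -0.19 to 0.15 and did not pass. The expansin gene expA4 fell at 1 probe set (-0.67, adjusted p = 0.000175), while its other 2 probe sets had -0.47 and 0.37 and did not pass.

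Aquaporins, the water channels of the plasma membrane and vacuole, moved both ways, with 2 of 20 tested probe sets higher and 2 lower. That share was 20%, beside 16.9% of all probe sets. TIP4-4, of the vacuolar membrane, rose to signals of 268 to 401 in the hybrids, with 393, 501 and 596 in Mo17, against 107, 215 and 152 in B73 (log2 difference 1.17 ± 0.19, adjusted p = 0.000368). NIP2-3, of the NOD26-like group, fell to 111 to 179 in the hybrids, with 49.6, 44.3 and 59.1 in Mo17, against 399, 216 and 405 in B73 (log2 difference -1.24 ± 0.20, adjusted p = 0.000493). PIP1-3 (0.36 at 1 probe set) and TIP2-1 (-0.47) passed in 10 and 4 of 12 fits with 1 array left out. The other 3 PIP1-3 probe sets had differences from 0.08 to 0.29 and did not pass.

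Of 43 translation probe sets 2 were higher, both of the ribosomal protein gene rpl39, and 3 were lower, a share of 11.6% beside 16.9% of all probe sets. The rpl39 signals at Zm.16508.1.S1_at were 4818 to 5920 in the hybrids, against 3422, 2569 and 3246 in B73 (log2 difference 0.82 ± 0.10, adjusted p = 4.04e-05), and the other rpl39 probe set had 0.67 (adjusted p = 0.000269). The lower ones were eif7 (-0.73, adjusted p = 5.38e-05), the ribosomal protein gene rpl30 (-0.58) and eIF-5 (-0.33), of which eIF-5 did not pass without B73 replicate 1 or B73 replicate 3. The gene eif7 averaged 589 in the hybrids, 108 in Mo17 and 975 in B73 at this probe set. Its other, brighter probe set averaged 965 in the hybrids, 715 in Mo17 and 1163 in B73 and did not pass (log2 difference -0.27, adjusted p = 0.0624).

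Of 26 cell cycle probe sets 1 passed, pcna2, the sliding clamp of DNA replication, at 3071 ± 242 in the hybrids (SD, n = 6) and 2324 ± 297 in B73 (SD, n = 3), a log2 difference of 0.41 (adjusted p = 0.0104). Leaving out B73 replicate 3 ended the call (adjusted p = 0.07), and so did using the values as deposited. Of 69 chromatin probe sets 3 passed, the histone deacetylase gene HDA108 (0.40), the methyl-binding gene mbd111 (0.32) and the SET-domain gene SET104 (-0.37), which passed in 7, 2 and 11 of 12 fits with 1 array left out. Both shares were under the 16.9% of all probe sets. Of 28 cytoskeleton probe sets 1 of the 4 tested for the beta-tubulin gene tub6 was higher (0.76, adjusted p = 0.0016, or 0.109 in the values as deposited) and the kinesin gene kin15 was lower (-0.66, adjusted p = 0.000277). The other 3 tub6 probe sets were brighter, had differences of 0.26, -0.16 and 0.00 and did not pass.

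Photosynthesis genes, which would also mark attached husk or leaf tissue, had 1 of 15 tested probe sets higher, PSBQ (0.56, adjusted p = 0.0368), and 0 lower, with a list median of 0.17. The summed signal of the 21 probe sets on the array ran from 4366 to 5181 in the hybrids and from 3814 to 4564 in B73, and its part in other differences was not tested. PSBQ passed in 6 of 12 fits with 1 array left out, and it missed the threshold in the values as deposited (0.30, adjusted p = 0.394) and, at an adjusted p of 0.133, when weak probe sets were kept. Endosperm sums were 420 to 471 in the hybrids and 386 to 630 in B73, and 11 of the 27 probe sets were at the floor on all 9 arrays. Sums of the pollen and anther list were 5202 to 6001 in the hybrids and 5294 to 6172 in B73. They were carried by the profilin genes PRO4 and prf5, which did not pass. Both genes are also on the cytoskeleton list, so these sums do not single out pollen or anther tissue.

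Each cross was also tested alone. B73xMo17 alone differed from B73 at 1359 probe sets (12.2%), 742 higher (6.67%) and 617 lower (5.55%), and Mo17xB73 alone at 1492 (13.4%), 770 higher (6.92%) and 722 lower (6.49%). Both comparisons share the B73 arrays. The test of the crosses against each other called 0 probe sets, with a smallest adjusted p of 1, and it called 6 in the values as deposited. An unadjusted p under 0.05 in that test was reached by 223 of the 11126 probe sets, and by 54 of the 1879. Both are smaller shares than the 0.05 that the threshold alone allows. Among the 1879 probe sets the median absolute difference between crosses was 0.08 on the log2 scale, the largest was 1.33, and 1 exceeded 2-fold.

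Of the 1879, the probe sets with the smallest unadjusted p-values between the crosses did not pass that test. Those given here were picked for a small p, so their values are a description. Zm.7578.1.A1_at read 68.3, 79.7 and 92 in B73xMo17, 39.1, 38.6 and 62.3 in Mo17xB73, 32.2, 36.5 and 29.9 in Mo17, and 152, 136 and 174 in B73. Zm.1920.2.A1_a_at read 735, 666 and 780 in B73xMo17, 1284, 1261 and 812 in Mo17xB73, 256, 378 and 390 in Mo17, and 649, 621 and 520 in B73. Each hybrid array of this second probe set was above every array of either inbred. Its log2 difference from B73 was 0.59 ± 0.16 (adjusted p = 0.0186), a call that ended without B73 replicate 3 (adjusted p = 0.103), in the values as deposited (0.33, adjusted p = 0.352) and with no filter (adjusted p = 0.0863).

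Mo17 itself differed from B73 at 4746 probe sets (42.7%), 2983 higher and 1763 lower. Over the 954 probe sets higher in the hybrids, the median log2 difference was 0.62 for the mean hybrid and 1.06 for Mo17. Over the 925 lower ones it was -0.55 for the mean hybrid and -1.19 for Mo17. Both columns share the B73 arrays, so they are set side by side only.

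Several probe sets for 1 gene often gave different answers. Of 107 genes with at least 2 tested probe sets, 9 had all of them past the test in 1 direction, 25 had some past it and some not, 73 had none and 0 had calls in opposite directions. Array identifiers also share a stem where probe sets were designed from 1 sequence cluster. Of 942 such clusters with at least 2 tested probe sets, 302 held a probe set past the test, 84 had at least 2 in 1 direction and none in the other, and 22 held both a higher and a lower one. In the cluster Zm.17662, 1 probe set averaged 90.3 in the hybrids, 11.9 in Mo17 and 263 in B73 (log2 difference -1.56), and another averaged 127 in the hybrids, 235 in Mo17 and 12.2 in B73 (log2 difference 3.37).

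The cluster of the largest rise, Zm.14497, was looked at after its values were seen. Of its 12 tested probe sets 4 were higher in the hybrids and 0 lower. Its tested probe sets other than Zm.14497.4.A1_at averaged from 1555 to 4700 in B73. Beside Zm.14497.4.A1_at, which was at the floor in B73, the cluster holds Zm.14497.1.A1_at, named his2b5 for a histone H2B gene. That probe set read 3966 to 5031 in the hybrids, only 33.2, 28.6 and 27.1 in Mo17, and 5397, 3623 and 4715 in B73, and it did not differ past the test between hybrids and B73 (log2 difference -0.08 ± 0.12, adjusted p = 0.71). The hybrid mean was 4278 ± 391 (SD, n = 6), inside the range of the B73 arrays.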

How the data were processed

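RNA of 12 pools of immature ears was hybridised to 12 Affymetrix maize arrays, with 8 ug of total RNA labelled per array. The deposited values are linear intensities, with MAS5 named as the tool per the submitters' processing notes. Its version and its scaling target were not given. Arrays carry no read depth, so their number limits the precision. From the 17734 probe sets, 113 AFFX controls were left out. Each array was scaled to a common median, signals under the floor (the median of the arrays' 20th percentiles) were raised to it, and a probe set was kept if at least 3 arrays put it above percentile 40. limma 3.58.1 in R 4.3.3 fitted a mean per genotype to all 12 arrays (trended eBayes, 8 residual degrees of freedom), with Benjamini-Hochberg adjustment over 11126 probe sets. The procedure was tested on simulated data. Python 3.11.15 and matplotlib 3.10.9 made tables and figures.

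Symbols came from the platform annotation through RefSeq names (Zm-B73-REFERENCE-NAM-5.0): 1452 probe sets had 1 gene and 1270 a usable symbol. Members and gene lists were chosen with earlier results of these data known. Named genes were the 10 largest rises and falls with a symbol among calls whose arrays did not overlap, the 5 largest each way whatever their name, up to 4 of each list by p, up to 5 per floor set and up to 5 by p between the crosses. Counts at 4-fold and the set at the floor in Mo17 were added after seeing the data.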

Additional observations from a re-analysis of the deposited data

How the results depend on the processing

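Of 84 named probe sets past the test, none changed direction under the alternatives run, and 26 lost the call with at least 1 array left out, 19 in the values as deposited, 16 with no filter and 6 with the higher floor. The cause was not tested.

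In the values as deposited, higher calls numbered 346 for the mean hybrid, 310 for B73xMo17 and 312 for Mo17xB73, list members 8 higher, and the crosses differed at 6 probe sets; 274 probe sets were at least 2-fold lower and 4 at least 4-fold lower, and the median of the set at the floor in Mo17 was -1.25. That median was -1.0 after quantile normalization and -0.60 with the floor at the 40th percentile. That floor left 178 probe sets at least 2-fold higher, 36 at least 4-fold higher and 1 at least 4-fold lower, with 109 at the floor in B73 and above it in the hybrids and 48 the reverse, as a higher floor takes in more probe sets. With no filter the last 2 counts were 54 and 5, and 4 probe sets were at least 4-fold lower.

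With 1 array left out in turn, lower calls ran from 561 to 1060 for the mean hybrid, from 375 to 739 for B73xMo17 and from 414 to 850 for Mo17xB73, lowest without B73 replicate 1 or 3. The counts without Mo17xB73 replicate 2 (479) and B73xMo17 replicate 2 (411) were also low. Calls between the crosses ran from 0 to 1, probe sets at the floor in B73 from 29 to 63, those at least 4-fold lower from 1 to 2, and the median of the set at the floor in Mo17 from -1.04 to -0.91. The difference of his2b5, which did not pass, ran from -0.24 to 0.05.

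With the replicate block the mean hybrid had 1044 higher and 952 lower calls. Arrays of the same number correlated between -0.09 and 0.46 over 18 pairs, 11 of them above 0.1, and 10 of 12 arrays correlated best with their own number, against at most 0.19 for arrays of different number. This hints at pairing, but the labels do not state it and 7 pairs were not above 0.1, so the fit without the block was kept as the main one. With the block rf2b no longer passed (adjusted p = 0.05 after rounding). The fit on the 9 hybrid and B73 arrays alone, robust and untrended variants, and scaling over kept probe sets kept every count within 1.5 times, and the 9 arrays give no value for the Mo17 set. Signal near the floor limits the falls and folds of dim probe sets.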
